A study of Mus musculus with 3 samples.

Results

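The genes described here encode the constitutive proteasome, the protease that breaks down ubiquitin-tagged proteins. They were chosen by name: every mouse gene whose symbol starts with Psm, one of the letters a to g and a number, without the 5 genes induced by interferon (Psmb8, Psmb9, Psmb10, Psme1 and Psme2). Of 55211 genes joined across the cultures, 50 symbols matched the pattern and 45 remained as members. The members fall into 12 groups by role, and 31 of them encode integral subunits. Psmc3ip matches by name and encodes a recombination factor that is no subunit. Psme2b matches as a copy of Psme2 and has no role assigned here.

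The samples were 3 separate cultures of Ba/F3, a mouse blood cell line that needs interleukin-3 to grow. All 3 were kept at 37 °C and 5% CO2 in RPMI with 10% fetal calf serum, penicillin-streptomycin and 0.2 ng/mL recombinant murine interleukin-3. The labels name no other treatment and no introduced allele, so the data form 1 group with no contrast. Polyadenylated RNA of each culture was sequenced in 1 strand-marked library with single reads of 50 bases. The labels call the cultures separate and say nothing of a shared stock or day, so differences are between these libraries and may be technical.

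The proteasome is a barrel-shaped core particle capped by a regulatory particle. The core stacks outer rings of alpha subunits, which gate the entrance, on inner rings of beta subunits, some of which cut peptide bonds. The base of the regulatory particle holds a ring of ATPases that unfold substrates, and its lid removes ubiquitin before entry. Dedicated chaperones assemble both particles, and interferon exchanges the catalytic beta subunits for variants that favour antigen processing. The subunits act in fixed proportions within one complex.

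The gene counts summed to between 32044889 and 37180883 reads per culture. Levels are given as CPM, the reads of a gene scaled to the counted reads of its culture, and a gene with at least 1 CPM in all cultures was counted as detected. In the deposited table the values of culture 3 follow a different order of genes from the other columns, so they were matched by gene. Among 543 genes with at least 10000 reads, culture 3 lay more than 1.5-fold from the mean of the others for 1 gene after matching and for 62 on the deposited rows. Among 5824 genes with 1000 to 10000 reads, where most members lie, it did so for 7 after matching and for 0 on the deposited rows, which are sorted by level. Of 5 markers of blood cells grown with interleukin-3 (Ptprc, Csf2rb, Il3ra, Gata2 and Spi1), 5 were detected, with a summed level of 1929 to 1955 CPM. The single markers moved in both directions across cultures 1, 2 and 3. Il3ra stood at 28.2, 27.3 and 38.7 CPM, Spi1 at 127, 130 and 150 and Gata2 at 598, 609 and 641. Ptprc stood at 461, 438 and 414 and Csf2rb at 741, 725 and 698. All 5 passed the chi-square test between cultures described below, beside 32.8% of all genes tested. Of 4 B lineage markers, Cd79a alone was detected, at a mean of 1.75 CPM, and Ebf1 had no read. None of 4 fibroblast markers, 3 T cell markers, 2 thymic epithelium markers or 3 germ cell markers was detected: the count is 0 in each list.

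RNA of nearly the whole proteasome was found in Ba/F3. Of the 45 members, 43 were detected, or 95.6%, beside 19.9% of all genes and 45.9% of protein-coding genes. The members took 0.452%, 0.459% and 0.465% of the reads in cultures 1, 2 and 3, or 0.459 ± 0.00626% (mean ± SD, n = 3, as for all levels below). The Wilson 95% intervals of these shares were 0.450 to 0.455%, 0.457 to 0.461% and 0.463 to 0.467%, so the share was lowest in culture 1 and highest in culture 3 beyond counting error. Reads carry no molecular identifiers, and the intervals cover counting error only. The 5 interferon-induced genes together took 0.0567 ± 0.00251%. The detected members had a median of 101 CPM, beside 39.7 CPM for all detected genes. Divided by the length of all exons of a gene merged, which allows levels of different genes to be compared, their median was 37.6 CPM per kilobase beside 8.65 for all detected genes, and 40 of 43 stood above that value.

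**Figure D1:**
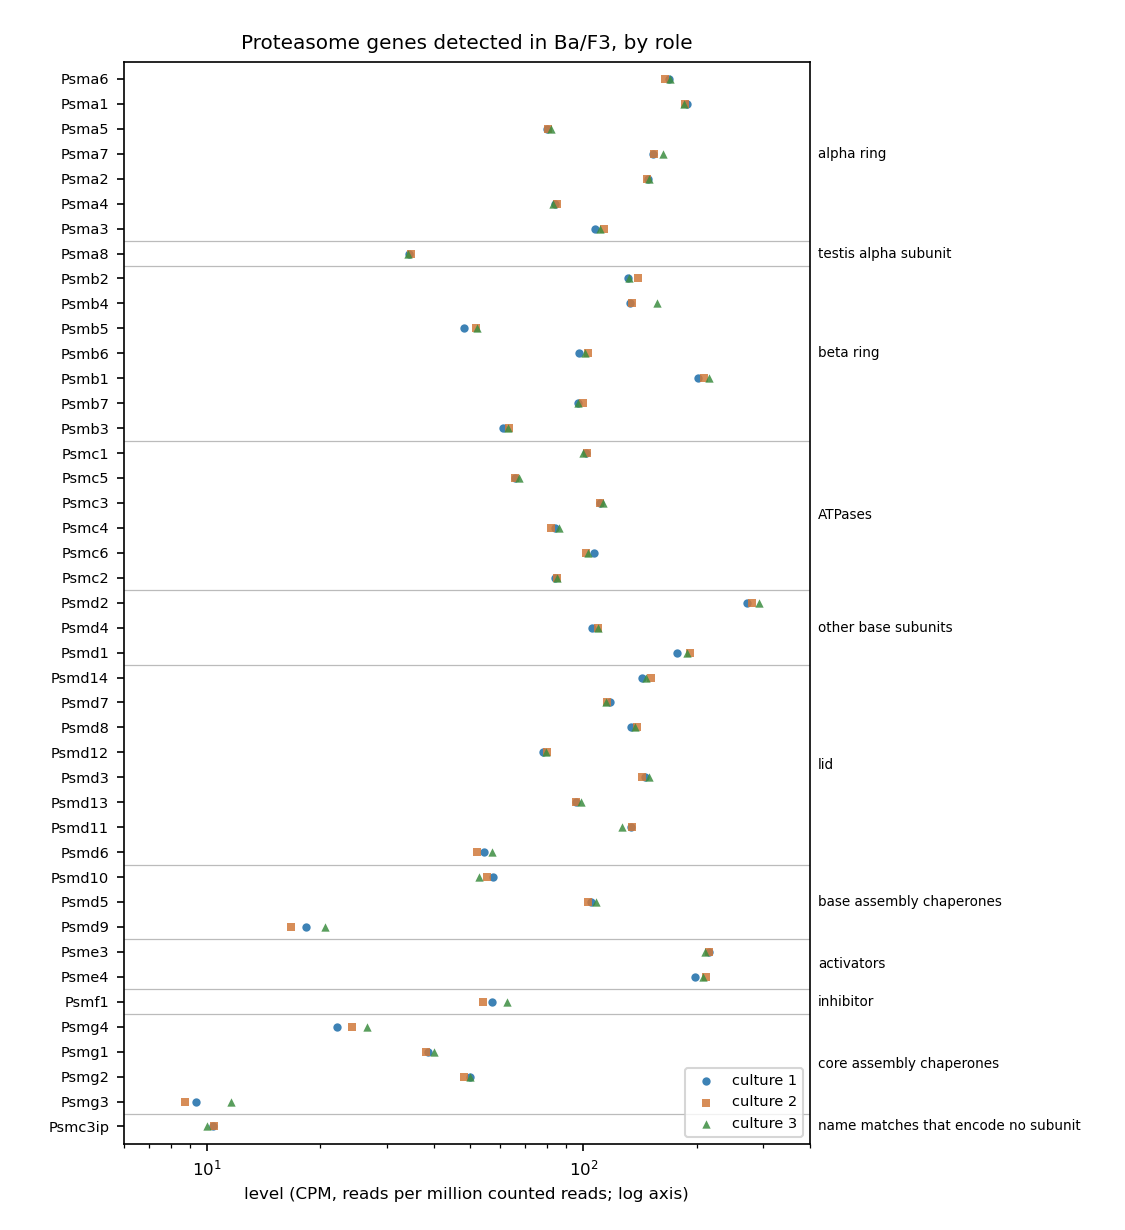
Level of each of the 43 detected proteasome genes in CPM (log axis) in the 3 cultures, grouped by role. The 3 symbols of a gene mostly overlap, and the widest gaps are those of Psmg3, Psmd9, Psmg4 and Psmb4.

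Per kilobase of merged exons, the 31 integral subunits lay closer to each other than detected genes in general. Their levels ran from 16.9 CPM per kilobase for Psmc2 to 136 for Psma6, with a median of 42.7. The upper quartile was 1.83 times the lower, beside 5.26 times over all detected genes, which reach down to 1 CPM. Within the core subunits it was 1.70 times, and 1.77 to 2.61 times under the other length measures. Within the regulatory subunits it was 1.66 times, and 1.42 to 1.69 times under the others. For all detected genes it was taken with merged exons only. The median level of the 14 core subunits was 50.9, 52.5 and 53.4 CPM per kilobase in cultures 1, 2 and 3, and that of the 17 regulatory subunits 37.6, 37.8 and 38.8. The core median was 1.35, 1.39 and 1.38 times the regulatory median, a mean ratio of 1.37 ± 0.0178. The core median was thus the higher in each culture, although single subunits of both particles overlapped: core subunits ranged from 27.2 to 136 and regulatory subunits from 16.9 to 69.6. Length matters for such comparisons. With the principal transcript of each gene in place of its merged exons, a measure added after the data were seen, the ratio of the medians was 1.66 ± 0.0419. Psma6 was the highest core subunit under 4 of 5 length measures, and Psmc2 was the lowest regulatory subunit under 3 of 5, with Psmd12 and Psmd6 lowest under the others. The highest and lowest members named in each role below are those per kilobase of merged exons. Under all 5 measures Psmd2 was the highest of its group, Psmd9 and Psmg3 were the lowest of theirs, and Psme3 stood above Psme4.

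**Figure D2:**
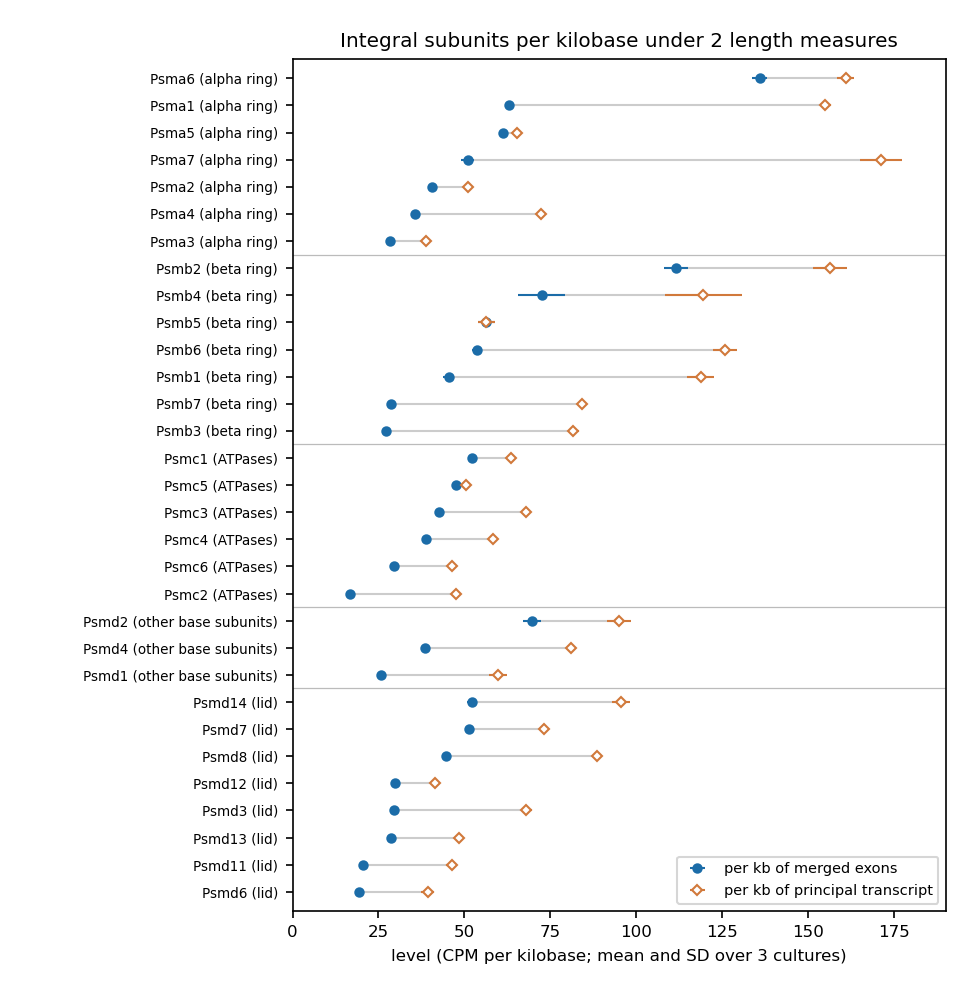
Level of the 31 integral subunits in CPM per kilobase of merged exons (filled) and of the principal transcript (open), as mean and SD over 3 cultures. Core subunits, the alpha and beta rings, reach 136 per kilobase of merged exons and regulatory subunits 69.6.

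Promoters of the members were searched for 6 short motifs. RefSeq windows on GRCm38.p6 were found for 37 members with 39 promoters, of 32851 promoters in all, and the 250 bases before each start were searched on both strands. The letters CCGGAAG, a site bound by ETS family factors, occurred in 14 of the 39 promoters (35.9%), beside 15.1% of promoters of detected genes, 6.91% of all promoters and 0 of 6 promoters of the interferon-induced set. They lay in promoters of regulatory subunits (Psmc1, Psmc2, Psmc6, Psmd2, Psmd4, Psmd6, Psmd11 and Psmd12), of the alpha subunit Psma6, of the activators Psme3 and Psme4, of the chaperone Psmg1 and of Psmc3ip. The antioxidant response element core TGACNNNGC, read by Nfe2l1 and Nfe2l2, occurred in 12.8% of the members' promoters beside 11.7% of those of detected genes. The CCAAT box stood at 35.9% beside 36.0%, the E-box CACGTG at 7.69% beside 8.48%, the TATA box TATAAA at 7.69% beside 5.93%, and the nuclear respiratory factor site at 2.56% beside 1.84%. No motif of the 6 contains another. A match describes these letters in this window and shows no binding. The following 60-base stretches, upstream of the start in the direction of the gene, show the ETS letters in capitals (CCGGAAG, or CTTCCGG where the match is on the other strand) in 6 members from 5 role groups.
Psmc6: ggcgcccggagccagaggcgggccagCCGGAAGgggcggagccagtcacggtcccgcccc
Psmd2: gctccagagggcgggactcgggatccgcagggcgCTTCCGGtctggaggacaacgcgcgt
Psmd4: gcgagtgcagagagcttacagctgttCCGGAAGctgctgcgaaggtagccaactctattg
Psmd11: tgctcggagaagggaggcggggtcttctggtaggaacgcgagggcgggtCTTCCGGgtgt
Psme3: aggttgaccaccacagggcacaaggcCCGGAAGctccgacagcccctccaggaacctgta
Psmg1: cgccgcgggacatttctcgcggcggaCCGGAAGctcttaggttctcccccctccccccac
On GRCm38.p6 these are chr14:45329698-45329757 (plus strand, Psmc6), chr16:20651592-20651651 (plus, Psmd2), chr3:95042706-95042765 (minus, Psmd4), chr11:80428555-80428614 (plus, Psmd11), chr11:101316080-101316139 (plus, Psme3) and chr16:95990996-95991055 (minus, Psmg1). The matches began 100, 26, 125, 11, 107 and 69 bases before the start, in that order. Beside the capitals the stretches share no fixed distance to the start.

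The alpha ring was expressed as a whole, with 7 of 7 subunits detected. Psma6 was the highest per length, at 137, 133 and 138 CPM per kilobase in cultures 1, 2 and 3 (ENSMUSG00000021024, GRCm38 chromosome 12, 55384222 to 55418454, plus strand). Psma3 was the lowest, at 27.6, 29.1 and 28.4 (chromosome 12, 70974621 to 70996347, plus strand). These ends of the ring did not overlap in any culture, but they were picked by their mean level over the same cultures. Psma1 (63.0 ± 0.650), Psma5 (61.2 ± 0.829), Psma7 (50.9 ± 1.80), Psma2 (40.5 ± 0.276) and Psma4 (35.5 ± 0.450) lay between them in CPM per kilobase. The order depends on the transcripts counted: per kilobase of the principal transcript, Psma7 was the highest at 171 CPM. In Psma5, 50.0% of the 50-base stretches recur in other annotated genes, mainly Gm8394 at 0.0194 CPM, so its level is less certain than those of its neighbours.

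Psma8, the alpha subunit of testis that takes the place of Psma7 in germ cells, was also detected. It stood at 34.3, 34.7 and 34.2 CPM, or 13.8 ± 0.122 CPM per kilobase. Its values were nearly equal in the cultures, with a coefficient of variation of 0.885%, below the 2.91% that counting error alone gives at its depth. Per kilobase of merged exons, Psma7 was 3.62, 3.59 and 3.87 times as high, and per kilobase of the principal transcript 8.42 ± 0.350 times. None of its 50-base stretches recurs in another annotated gene, Psma7 included. The germ cell markers Ddx4 and Sycp3 stood at 0.145 and 0.00897 CPM and Dazl had no read. In bulk RNA, few cells with much Psma8 RNA and many cells with little cannot be told apart.

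The beta ring, which carries the catalytic sites, was detected with 7 of 7 subunits. Psmb2, a structural subunit, was the highest at 109, 116 and 110 CPM per kilobase (chromosome 4, 126677630 to 126709714, plus strand). Psmb3, also structural, was the lowest at 26.6, 27.6 and 27.3 (chromosome 11, 97703399 to 97713500, plus strand). By this measure the highest and lowest subunits, picked by their mean over the same cultures, stayed apart in every culture. With all reads of a gene divided by the length of its unshared stretches only, Psmb5 was the highest at 123 CPM per kilobase. Per kilobase of the principal transcript it was the lowest of the ring at 56.4. Psmb4 (72.4 ± 6.76) and Psmb1 (45.4 ± 1.52) are structural as well. Psmb11, which replaces the catalytic subunit Psmb5 in thymic epithelium, had 0 reads in all cultures. That allows at most 0.0936, 0.0885 and 0.0807 CPM in cultures 1, 2 and 3, taking 3 reads as the limit. Of the thymic epithelium markers, Foxn1 stood at 0.467 CPM and Epcam at 0.

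The 3 catalytic subunits were each expressed beside the interferon-induced subunit that can replace them. Psmb5, the chymotrypsin-like subunit, stood at 53.6, 57.5 and 58.1 CPM per kilobase and its counterpart Psmb8 at a mean of 73.0 ± 2.36. The ratio of Psmb5 to Psmb8 was 0.747, 0.805 and 0.768, below 1 in every culture. Psmb6, the caspase-like subunit, stood at 52.1, 55.1 and 53.8 CPM per kilobase and Psmb9 at 16.5 ± 1.30, a ratio of 3.21, 3.58 and 3.002. Psmb7, the trypsin-like subunit, stood at 28.3, 29.1 and 28.3 and Psmb10 at 22.6 ± 2.14, a ratio of 1.37, 1.30 and 1.14. The constitutive subunit was thus the more abundant for Psmb6 and Psmb7 in all cultures, and this held under the 5 length measures. The order of Psmb5 and Psmb8 did not: per kilobase of the 50-base stretches that no other gene shares, the ratio was 1.55 ± 0.0587. That measure divides all reads of a gene by its unshared length, as if no read in shared stretches were counted, which is not known. Of the stretches of Psmb5, 54.1% recur elsewhere, mainly in Gm3375 at 0.155 CPM. Psmb7 shares 9.26% of its stretches with Nek6 (48.1 CPM), which lies on the other strand, and the strand setting of the counting is not known. The interferon-induced subunits made up 44.7 ± 1.14% of the summed level of the 6 catalytic genes per kilobase.

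**Figure D3:**
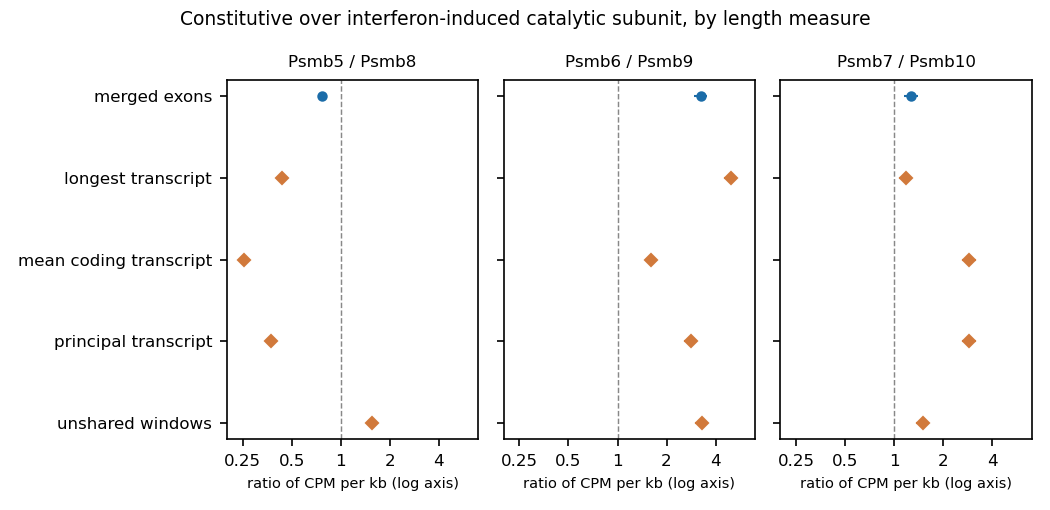
Ratio of each constitutive catalytic subunit to its interferon-induced counterpart in CPM per kilobase (log axis; mean and SD over 3 cultures, SD often smaller than the symbol) under 5 length measures. Psmb6 and Psmb7 stand above 1 in all 5, and Psmb5 above 1 in the last only, at 1.55.

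In the regulatory particle, 6 of 6 ATPases were detected. Psmc1 was the highest per kilobase of merged exons at 52.5, 52.7 and 51.6 CPM (chromosome 12, 100110154 to 100123405, plus strand) and Psmc2 the lowest at 16.7, 16.9 and 16.9 (chromosome 5, 21785283 to 21803787, plus strand). Psmc5 (47.6 ± 0.704), Psmc3 (42.7 ± 0.480), Psmc4 (38.8 ± 0.991) and Psmc6 (29.7 ± 0.810) lay between. The ATPases varied little across the cultures: Psmc2 varied by 0.726%, Psmc3 by 1.13%, Psmc1 by 1.15%, Psmc5 by 1.48%, Psmc4 by 2.55% and Psmc6 by 2.73% (coefficient of variation). Per kilobase of the principal transcript the ATPases ran from 46.4 for Psmc6 to 68.0 for Psmc3. Psmc2 was the lowest also per kilobase of the longest transcript (24.5) and of unshared stretches (17.5). Its low place thus depends on the length measure taken.

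Of the other base subunits, Psmd2, a scaffold that docks ubiquitin-binding proteins, was the highest regulatory subunit per kilobase of merged exons, at 67.2, 69.4 and 72.3 CPM per kilobase (chromosome 16, 20651652 to 20663414, plus strand). Psmd1, a scaffold beside it, was the lowest of these other base subunits at 24.4, 26.5 and 25.96 (chromosome 1, 86064387 to 86139151, plus strand). Psmd4, a ubiquitin receptor, stood at 38.4 ± 0.699. Per kilobase of the longest transcript, Psmd4 was the lowest of them at 50.9. Psmd2 was lowest in culture 1 and highest in culture 3, and its range did not reach that of Psmd1 or Psmd4.

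The lid was detected with 8 of 8 subunits. Psmd14, the enzyme that cuts ubiquitin from substrates, was the highest at 50.7, 53.7 and 52.1 CPM per kilobase (chromosome 2, 61711694 to 61800376, plus strand). Psmd7, its binding partner, stood beside it at 52.0, 51.1 and 50.7. The values of this pair overlapped between cultures, so their order is not set. Psmd6 was the lowest at 19.4, 18.6 and 20.4 (chromosome 14, 14112174 to 14120984, minus strand), and Psmd11 at 20.97, 21.1 and 19.9 overlapped with it. The structural subunits Psmd8 (44.6 ± 0.767), Psmd12 (29.9 ± 0.325), Psmd3 (29.4 ± 0.698) and Psmd13 (28.6 ± 0.546) lay between, and in that order Psmd12 overlapped with Psmd3 and Psmd3 with Psmd13.

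The assembly chaperones held both well and weakly expressed genes. Psmd10, also known as gankyrin, binds an ATPase during base assembly and stood at 39.1, 37.7 and 36.0 CPM per kilobase (chromosome X, 140948429 to 140956728, minus strand). Psmd9, another base chaperone, stood at 2.52, 2.31 and 2.83 (chromosome 5, 123169413 to 123250131, plus strand), and Psmd5, which acts in the same step, at 14.5 ± 0.389. Of the core chaperones, Psmg4 was the highest (Psmg2 per kilobase of the principal transcript) at 39.98, 43.7 and 47.8 (chromosome 13, 34162964 to 34178173, plus strand) and Psmg3 the lowest at 3.23, 3.01 and 4.01 (chromosome 5, 139823592 to 139826885, minus strand). These act as a pair in building the alpha ring, yet their levels per kilobase did not overlap. Psmg1 (29.0 ± 0.790) and Psmg2 (28.5 ± 0.596), the other pair, overlapped. Psmg3 and Psmd9 share sequence with other gene models: 7.89% of the 50-base stretches of Psmg3 recur in Gm26938, which has no read, and 24.7% of those of Psmd9 in Gm26745. How reads shared by such models were assigned is not known.

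Of the activators, Psme3, a nuclear cap that works without ubiquitin, stood at 72.9, 73.0 and 71.5 CPM per kilobase (chromosome 11, 101316213 to 101323537, plus strand). Psme4, a large single-chain cap, stood at 23.6, 25.3 and 24.8 (chromosome 11, 30771726 to 30880361, plus strand), so their values did not overlap. Psme3 was 1.11 ± 0.0576 times as high as Psme1, a subunit of the interferon-induced cap, but 0.618 ± 0.0321 times per kilobase of the principal transcript, so their order is not set. Psmf1, which inhibits the core in vitro, stood at 8.86, 8.40 and 9.72 (chromosome 2, 151715812 to 151744186, minus strand), near the middle of all detected genes at the 51.3 percentile. Psmc3ip, the recombination factor, stood at 10.4, 10.4 and 10.0 CPM, but 17.6% of its 50-base stretches recur in Mlx on the other strand, at 32.5 CPM. Psme2b was not detected, at 0.0312, 0.118 and 0.134 CPM, and 69.3% of its stretches recur in other genes, mainly Psme2 at 76.8 CPM. Of the 45 members, 19 share no 50-base stretch with another gene, 35 share under 10%, and 3 (Psma5, Psmb5 and Psme2b) share over 25%.

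The integral subunits varied little across the cultures. The level of an integral subunit in its highest culture was a median of 1.04 times that in its lowest, and at most 1.18 times, in Psmb4. Spread between the cultures was set against counting error with a chi-square test of Poisson heterogeneity. It was run on the 13141 genes that averaged 10 or more reads, with p-values adjusted over all of them after Benjamini and Hochberg. With an adjusted p under 0.05, 13 of the 43 detected members differed, or 30.2%, beside 32.8% of all genes tested. Well-covered genes pass such a test more easily. Among genes with a mean of 1000 to 10000 reads, 10 of 39 members differed (25.6%), beside 41.2% of 5901 genes. With the trimmed mean of M values scaling it was 38.5% beside 44.7%. With that scaling 18 of all 43 members differed (41.9%), beside 34.5% of all genes tested, so the members' share overall lies below or above that of all genes depending on the scaling. With reads scaled to column totals, the coefficient of variation of the 39 members with 1000 to 10000 reads had a median of 2.37%, beside 3.38% for all genes in that range. The gap was smaller with median-of-ratios scaling (2.85% beside 3.61%) and with the trimmed mean of M values (2.94% beside 3.56%). With column totals, the coefficient lay below the median of all genes for 10 of 14 members with 1000 to 3000 reads and 17 of 25 with 3000 to 10000, but for 1 of 4 with 300 to 1000.

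**Figure D4:**
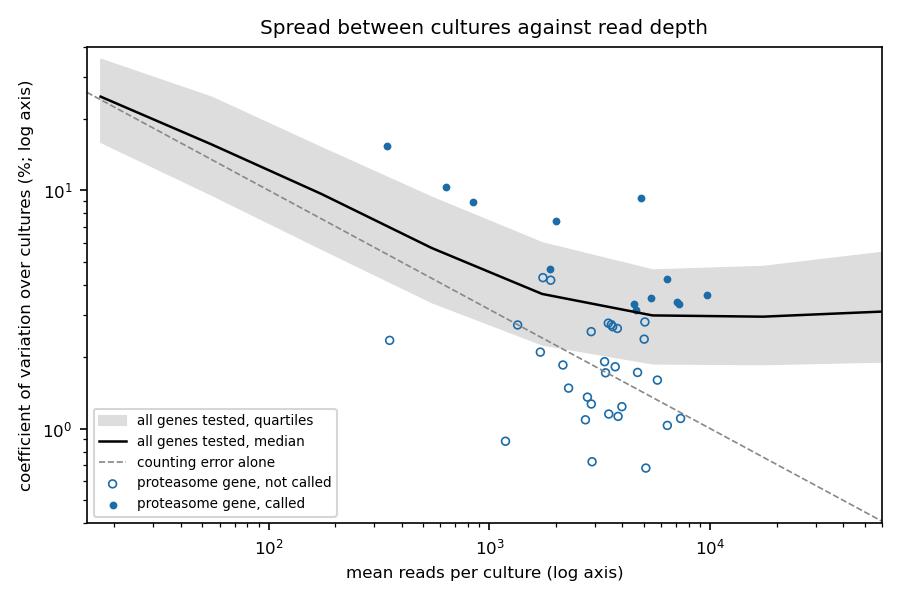
Coefficient of variation over the 3 cultures (%) against mean reads per culture (both log axes) for the 43 detected proteasome genes, with the median and quartiles of all 13141 genes tested and the line of counting error alone. Of the members with 1000 to 10000 reads most lie under the median line, while the low-read chaperones Psmg3, Psmd9 and Psmg4 lie above it.

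The members that differed were 8 integral subunits (Psma7, Psmb1, Psmb2, Psmb4, Psmd1, Psmd2, Psmd6 and Psmd11), 3 chaperones (Psmd9, Psmg3 and Psmg4), the activator Psme4 and the inhibitor Psmf1. Among the ATPases, a group singled out after the values were seen, 0 of 6 passed the chi-square test, beside 32.8% of all genes tested, also with median-of-ratios or trimmed mean of M values scaling of the libraries, and 0 of 6 had an unadjusted chi-square p under 0.05, beside 41.0% of genes, the lowest being 0.0787 for Psmc6. Psmg3 had the widest gap, with 9.33, 8.71 and 11.6 CPM in cultures 1, 2 and 3, a ratio of highest to lowest of 1.33 (adjusted p = 0.00136, chi-square test of Poisson heterogeneity). Psmd9 followed at 18.3, 16.7 and 20.5 CPM, a ratio of 1.23 (chi-square test, adjusted p = 0.00438). Psmg4 stood at 22.2, 24.2 and 26.5 CPM, a ratio of 1.195 (chi-square test, adjusted p = 0.00580). All these chaperones were highest in culture 3, and the lowest culture was culture 2 for Psmg3 and Psmd9 and culture 1 for Psmg4. Psmb4 stood at 133, 135 and 157 CPM, so that cultures 1 and 2 were alike and culture 3 was 1.18 times the lowest (chi-square test, adjusted p = 3.1e-18). Psmf1 stood at 57.0, 54.1 and 62.6 CPM, a ratio of 1.16 (chi-square test, adjusted p = 7.9e-05). Members that differed and were highest in culture 3 numbered 9 of 43 (20.9%), beside 10.2% of all genes tested. For culture 2 it was 4 of 43 (9.30%) beside 6.03%, and for culture 1 it was 0 of 43 beside 16.6%.

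The calls changed with each culture left out. Without culture 3, 4 members differed (Psmb2, Psmd1, Psmd14 and Psme4), or 9.30% beside 20.2% of all genes tested, and the chi-square test gave adjusted p = 0.637 for Psmg3, 0.341 for Psmd9, 0.247 for Psmg4, 0.663 for Psmb4 and 0.295 for Psmf1. Without culture 1, 8 members differed (18.6%, beside 11.1% of genes), Psmg4 not among them (chi-square test, adjusted p = 0.239). Without culture 2, 11 differed (25.6%, beside 29.5% of genes), Psmd9 not among them (chi-square test, adjusted p = 0.0960). The chi-square test counts any spread beyond counting error. A negative binomial test with the common dispersion of all genes (0.00199, a coefficient of variation of 4.46%) called 0 members after Benjamini-Hochberg adjustment, beside 7.91% of all genes, and 3 (Psmb4, Psmd9 and Psmg3) at an unadjusted p under 0.05, beside 15.4% of genes.

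The members lay slightly low in culture 1 and slightly high in culture 3, with no test of it. On the log2(CPM + 1) scale, their median deviation was -0.014 in culture 1, -0.0011 in culture 2 and 0.015 in culture 3, beside 0.0054, -0.0055 and -0.0087 for all detected genes. Of the 43, 4 were highest in culture 1 (9.30%), 18 in culture 2 and 21 in culture 3, beside 41.5%, 27.3% and 31.2% of all detected genes. Culture 1 was thus seldom the highest for a proteasome gene. The length of genes moved with the cultures as well: over detected genes, the deviation in culture 3 fell by 0.0123 per doubling of length, and that in culture 2 rose by 0.0088. With that trend removed, the members' median in culture 1 was -0.040 beside -0.021 for all detected genes. The members' median minus that of all detected genes was -0.019 in culture 1, 0.0044 in culture 2 and 0.023 in culture 3. With the trend removed it was -0.018, 0.0092 and 0.011, so that the difference in culture 3 was smaller.

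**Figure D5:**
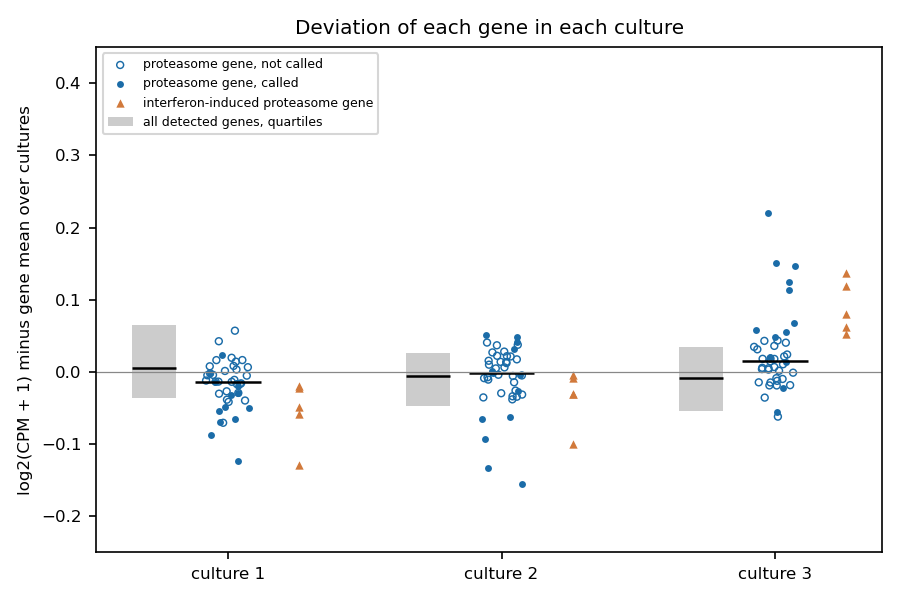
Deviation of each proteasome gene from its mean over cultures, on the log2(CPM + 1) scale, in each culture, with black lines at the members' medians and the quartiles and median of all detected genes in grey. In culture 3, 5 of 5 interferon-induced genes and the members' median lie above 0, and the median of all detected genes lies below.

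The interferon-induced genes, which were no members, passed the chi-square test in 5 of 5 cases, beside 41.2% of genes with 1000 to 10000 reads, and each was highest in culture 3. Of all genes tested, 10.2% both passed and were highest there. The chi-square test counts any spread beyond counting error. For these 5 genes the negative binomial test and the calls with a culture left out were not examined. Psmb8 stood at 243, 241 and 256 CPM, Psmb9 at 59.5, 56.2 and 65.6 and Psmb10 at 35.1, 38.2 and 42.4. The cap subunits Psme1 and Psme2 stood at 139, 144 and 151 and at 74.1, 75.1 and 81.1. Whether the difference between the cultures was larger for these genes than for the constitutive subunits was not tested.

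Other genes of the pathway were also expressed. Of 5 further proteasome components measured (Paaf1 was not analysed here), 5 were detected and 2 differed between the cultures, Adrm1 and Sem1. The chi-square test called 32.8% of all genes tested and 41.2% of those with 1000 to 10000 reads. Ecpas, a proteasome-binding scaffold, was the highest of them at 270 ± 2.78 CPM and Adrm1, a ubiquitin receptor, the lowest at 33.2 ± 3.54. Of 5 genes that control proteasome transcription, 5 were detected and 2 differed, beside the same 32.8% of all genes tested. Nfe2l1, the factor that raises subunit transcription when proteasomes are inhibited, stood at 131, 143 and 138 CPM. Vcp, which extracts it from the membrane, was the highest at 235 ± 7.48, and Ngly1, which removes its sugars, the lowest at 50.6 ± 1.04. Nfe2l1 was lowest in culture 1 and differed with an adjusted p = 7.3e-04 by the chi-square test.

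Of 12 genes for delivery and deubiquitination of substrates, 12 were detected and 4 differed, beside 32.8% of all genes tested. Rad23b, a shuttle, was the highest at 331 ± 11.2 CPM, and Ufd1, a partner of Vcp, the lowest at 28.9 ± 3.004. Of 6 genes for ubiquitin and its activation, 5 were detected and 4 differed, beside the same 32.8%. Rps27a, which encodes ubiquitin fused to a ribosomal protein, stood at 718 ± 15.5 CPM, the highest of them. Ribosomal protein genes have many processed copies, so the reads counted for it are uncertain.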

How the data were processed

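RNA of 3 Ba/F3 cultures was sequenced. Reads were aligned to GRCm38 with HISAT2 and counted with an in-house program by the authors, per the design text of the series. Versions, annotation release and strand setting: not given in the sources used here. Values were deposited by the authors on a log2 scale, as log2(reads per 10000000 + 1). Undoing the log gave whole reads for 100% of values within 0.01 of a whole number. Totals were 32044889, 33880292 and 37180883 reads, and 1 read was worth 0.0312, 0.0295 and 0.0269 CPM.

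In 0 of 23001 rows with reads do identifier and symbol name the same gene. Cultures 1 and 2 were read by identifier and culture 3 by symbol (53214 genes) or coordinates (1997 genes) through GENCODE M21. Rows are sorted by level, so that culture 3 stays near the others on the deposited rows for middling genes. Of these, 5808 were kept where culture 3 lay within 1 log2 unit of culture 1 both when matched and on the deposited rows. Among these preselected genes, its difference from the other cultures had a standard deviation of 0.11 on the log2 scale when matched and 0.08 on the deposited rows. Its Pearson correlation with log length was -0.22 when matched and -0.06 on the deposited rows, beside -0.02 for culture 1 minus culture 2.

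Reads were scaled to column totals. Lengths are merged exons of GENCODE M21. The pseudocount on the log2 scale was 1 CPM. Tests used Python 3.11.15 with numpy 2.4.6, scipy 1.17.1 and pandas 2.3.3. On simulated reads of 13141 genes for the comparison between cultures, the chi-square test called 28%, 64%, 78% and 84% of 50 genes each changed by 1.1, 1.2, 1.5 and 2 times, and 0.100% of unchanged genes. Those reads were drawn with counting error alone and no further spread between cultures. They cannot show how often the test calls unchanged genes where such spread exists. The test compares these libraries, 1 per culture, and not conditions.

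Members and lists were chosen with earlier results of these data known. In each role the highest and lowest member per kilobase, all undetected members and the 5 called members with the largest ratio are named. The lists are the interferon-induced set, other components, transcriptional control, delivery and ubiquitin genes, and 6 marker lists, of which some genes are not reported here. Alternatives were other thresholds, scalings, length measures, a negative binomial test and leaving out each culture. Principal transcripts, unshared 50-base stretches and removal of a length trend, and the length measures for Psma7 over Psma8 and Psme3 over Psme1, were added after the data were seen.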

Additional observations from a re-analysis of the deposited data

How the results depend on the processing

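The count of detected members was 43 under every alternative run. With a culture left out, the members' mean share of reads was 0.456 to 0.462%, beside 0.459% with all of them. With 3 cultures, leaving 1 out always moves the mean by less than the SD, so this is a weak check. With median-of-ratios scaling, centred on the same mean library size, the mean share was again 0.459%. Its SD was then 0.0112%, beside 0.00626% with column totals. The order of Psmb5 and Psmb8, that of Psme3 and Psme1 and the sign of the members' median deviation in culture 2 reversed under the settings given below. Leaving out each culture in turn gave 4 to 11 members called different between cultures, beside 13 of 43 with all of them (30.2%, and 32.8% of all genes). With median-of-ratios scaling 17 were called (39.5%, and 34.3% of genes), with trimmed mean of M values scaling 18 (41.9% and 34.5%), with every gene with a read tested 11 of 44 (25% and 17%), with a mean of at least 100 reads 13 (30.2% and 40.2%), with the length trend removed 18 (41.9% and 35.7%) and with the negative binomial test 0 (and 7.91% of genes). The members' median deviation in culture 1 was -0.031 with median-of-ratios scaling, -0.032 with trimmed mean of M values scaling and -0.040 with the length trend removed; in culture 2 it was 0.019 with that trend removed and 0.0043 with median-of-ratios scaling, beside -0.0011, and in culture 3 it was 0.033 with trimmed mean of M values scaling. Per kilobase of the longest, the mean coding and the principal transcript and of unshared 50-base stretches, in that order, the core median was 87.2, 104, 100.2 and 51.8 CPM, the regulatory median 50.2, 73.3, 60.3 and 34.4, and their ratio 1.74, 1.42, 1.66 and 1.51. In the same order, Psmb5 over Psmb8 was 0.436, 0.255, 0.372 and 1.55, Psmb6 over Psmb9 4.98, 1.61, 2.83 and 3.29, Psmb7 over Psmb10 1.17, 2.88, 2.88 and 1.49, Psma7 over Psma8 5.76, 5.96, 8.42 and 3.86, Psme3 over Psme1 1.104, 0.872, 0.618 and 1.29, and the interferon-induced share of catalytic subunits 48.0%, 57.2%, 45.8% and 36.0%. These moves follow from the lengths divided by; which transcripts these cells use was not tested. No paired analysis was possible because the cultures form 1 group. Depth limits the genes with few reads most: counting error alone gives a coefficient of variation of 5.42% for Psmg3 and 1.02% for Psmd2.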
